A study of Mus musculus with 6 samples.

Results

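Adhesion molecules of the immunoglobulin superfamily are cell-surface proteins whose immunoglobulin-like domains bind partners on neighbouring cells or in the matrix. In the vessel wall, ICAM1 and VCAM1 are ligands for the integrins of leukocytes, and their genes are classical targets of inflammatory NF-kB signalling. CD44 is not an immunoglobulin-type protein but the main receptor for the matrix polysaccharide hyaluronan. The genes described here are 8 chosen by name out of 54532 in the deposited table: Icam1, Vcam1, Alcam, Mcam, Ncam1, F11r and Thy1, which encode proteins with immunoglobulin-like domains, and Cd44. The rule names the genes and uses no threshold on a measured value, but the genes were chosen with earlier results of these data known.

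The samples were passaged primary cultures of smooth muscle cells that, per the study's methods, came from the mouse abdominal aorta, were checked for purity by ACTA2 staining, were grown in serum-containing medium and were then kept without serum for the experiments. They had received an adenoviral vector with either a control plasmid (Ad-Con, labelled wild type, 3 libraries) or one meant to overexpress PDK4 (Ad-PDK4, 3 libraries), an enzyme of mitochondria that holds back the oxidation of pyruvate. Per the study both groups were then exposed to angiotensin II, and cells without the vector or without angiotensin II were not analysed here. The study calls the 3 libraries of a group biological replicates without saying whether they came from separate animals or cultures, so every p-value measures the spread between these libraries, part of which may be technical. The comparison asks how the adhesion genes differ under the PDK4 vector.

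Each library held 17588942 to 21861872 reads assigned to genes, recovered from the deposited values. Mouse Pdk4 had 10.0 ± 0.469 FPKM (fragments per kilobase of gene, scaled to library size, mean ± SD, n = 3) under the Ad-Con label and 7.48 ± 0.162 under the Ad-PDK4 label, so overexpression was not visible in this table, and it is not known whether the count covers reads of the plasmid. Higher and lower are therefore said of the Ad-PDK4 label, as deposited, against the Ad-Con label. Of the 8 smooth muscle markers, Acta2 was present (at least 1086 reads in every library), whereas 5 were too low to be tested. These were Myh11 with 2 to 10 reads, Myocd with 0 to 5, Tagln with 4 to 20, Cnn1 with 8 to 30 and Des with 3 to 16. The 8 markers summed to 87.0 to 88.7 FPKM under the Ad-Con label and 43.2 to 48.0 under the Ad-PDK4 label. Most of that sum was Acta2 (78.0 ± 0.950 against 36.2 ± 2.40 FPKM, n = 3), the 1 marker called lower among 3 tested. Smtn (8.32 against 8.44 FPKM, limma adjusted p = 0.839) and Lmod1 (0.720 against 0.570 FPKM, limma adjusted p = 0.357) were not past the threshold. For leukocytes, Ptprc, Itgam, C1qa, Tyrobp and Cd3e had 0 reads in all 6 libraries. The sum of the macrophage and leukocyte markers went from 15.0 to 17.9 FPKM under the Ad-Con label and from 5.91 to 7.44 under the Ad-PDK4 label, most of it Cd68 (14.2 ± 1.78 against 4.24 ± 0.991 FPKM, n = 3). Other members of that list stood higher under the Ad-PDK4 label without overlap. These were Csf1r with 11 to 35 against 56 to 62 reads (limma adjusted p = 0.0635 without a filter) and Lyz2 with 1.51 ± 0.195 against 1.98 ± 0.250 FPKM (n = 3, limma adjusted p = 0.0791). Of 8 endothelial markers, Tie1, Emcn and Cldn5 had 0 reads and Cdh5 at most 4, with sums of 0.617 to 0.798 and 0.885 to 1.18 FPKM. Most of that sum was Kdr, which had 71 to 121 against 141 to 174 reads without overlap (log2 fold change 0.68, limma adjusted p = 0.0645). In bulk RNA, fewer cells of a type and less RNA per cell cannot be told apart.

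Icam1 and Vcam1 rose, Ncam1 and Thy1 fell, and Cd44 and F11r were not past the threshold. Alcam and Mcam were too low to be tested. Of the 6 tested members, 2 passed an adjusted p of 0.05 upwards and 2 downwards, in a table where 21.8% of 13423 tested genes were higher and 20.8% lower. Under an added 2-fold limit, Icam1 and Vcam1 remained and no member was lower, against 3.95% and 2.68% of all tested genes. Since the members were chosen with earlier results known, these shares give context and do not test the members as a set. The groups did not overlap for 5 of the 6 tested members and for 54.3% of all tested genes, so lack of overlap by itself was common in these libraries.

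**Figure D1:**
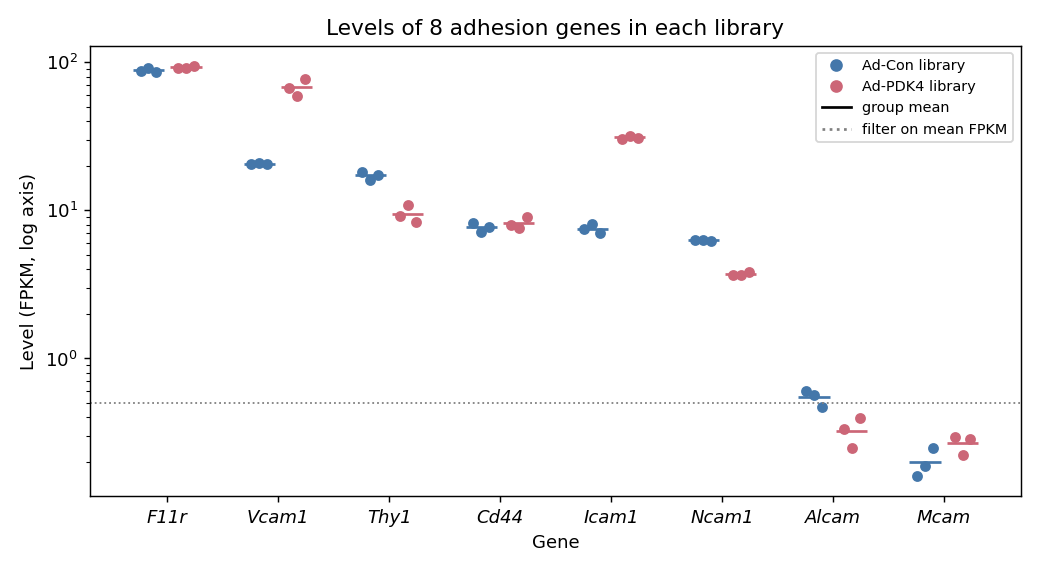
Level of each of the 8 genes (FPKM, log axis) in each Ad-Con library (blue) and Ad-PDK4 library (red), with group means as lines and the filter on mean FPKM dotted. Vcam1 and Icam1 sit higher in all 3 Ad-PDK4 libraries, Thy1 and Ncam1 lower, F11r and Cd44 at nearly the same level, and Alcam and Mcam near or under the filter.

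Icam1, the ligand of leukocyte beta2 integrins, is on chromosome 9 (GRCm38, chr9:21015985-21028817, plus strand, 7 exons in its longest coding transcript). It had 7.44, 8.12 and 7.05 FPKM in Ad-Con replicates 1 to 3 and 30.4, 31.8 and 31.1 FPKM in Ad-PDK4 replicates 1 to 3. Every Ad-PDK4 library lay above every Ad-Con library, and the replicates of each group were close together. The means were 7.54 ± 0.546 and 31.1 ± 0.698 FPKM (n = 3), which is a log2 fold change of 2.03 on the log2(FPKM + 0.1) scale (SE 0.06, 95% interval 1.88 to 2.18, limma adjusted p = 3.66e-07). The values rested on 660, 622 and 557 against 2414, 2428 and 2992 reads. By size the rise ranked 227th among 13423 tested genes. An annotated antisense gene, Gm47079, covers 511 bases (11.7%) of the exons of Icam1 and had 0 to 4 reads per library. Whether counting used strand was not stated in the sources used here.

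The promoter window of Icam1 is shown because this member rose most, with those of F11r and Cd44, the other tested members that the RefSeq promoter table (GRCm38.p6) holds. Each runs from 250 bases before to 50 after the start site. Windows were held for 5 of the 8 members, with none for Vcam1, Ncam1 or Thy1. The Icam1 window is chr9:21015690-21015989 (plus strand), that of F11r chr1:171437311-171437610 (plus strand) and that of Cd44 chr2:102901616-102901915 (minus strand). Capitals mark matches, on either strand, to a relaxed kappaB-like motif (GGNNNTTCC, after the sites of NF-kB) or to the GAS motif of STAT factors (TTCNNNGAA).
Icam1: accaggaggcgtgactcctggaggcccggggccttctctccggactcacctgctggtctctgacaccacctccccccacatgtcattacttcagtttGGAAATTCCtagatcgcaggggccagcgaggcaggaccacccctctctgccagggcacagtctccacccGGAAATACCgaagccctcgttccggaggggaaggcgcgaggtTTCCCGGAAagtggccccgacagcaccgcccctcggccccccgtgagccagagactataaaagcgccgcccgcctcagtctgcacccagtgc
F11r: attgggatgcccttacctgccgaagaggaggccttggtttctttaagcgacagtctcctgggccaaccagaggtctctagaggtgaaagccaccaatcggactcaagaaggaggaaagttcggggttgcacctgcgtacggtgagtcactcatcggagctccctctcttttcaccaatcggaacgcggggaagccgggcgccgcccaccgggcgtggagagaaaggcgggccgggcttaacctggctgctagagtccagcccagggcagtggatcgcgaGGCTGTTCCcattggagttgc
Cd44: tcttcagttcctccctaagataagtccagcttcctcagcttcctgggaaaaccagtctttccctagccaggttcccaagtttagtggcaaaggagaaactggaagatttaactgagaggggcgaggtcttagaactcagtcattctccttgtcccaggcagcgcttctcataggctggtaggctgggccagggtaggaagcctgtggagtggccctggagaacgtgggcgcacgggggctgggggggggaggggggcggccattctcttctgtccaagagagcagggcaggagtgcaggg

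The Icam1 window held 2 kappaB-like matches, GGAAATTCC at positions -153 to -145 and GGAAATACC at -84 to -76 from the start site, and 1 GAS match, TTCCCGGAA at -42 to -34. F11r held 1 kappaB-like match, GGCTGTTCC, after the start site at positions 30 to 38, and Cd44 held none. Of all 32851 promoter windows in the table, 18.5% held a kappaB-like match and 8.30% a GAS match, so such letters are not rare. The core of the interferon-stimulated response element, ISRE (in 3.44% of windows) and the CArG box of smooth muscle genes (1.63%) matched in none of the 5 windows. TGANTCA, the AP-1 motif (7.81%), matched in F11r alone, and the GC box GGGCGG (35.7%) in all 5. The matches describe letters and not binding.

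Vcam1, which binds the alpha4 beta1 integrin of leukocytes, is on chromosome 3 (chr3:116109949-116129688, minus strand, 9 exons in its longest coding transcript). It had 20.4, 20.9 and 20.6 FPKM under the Ad-Con label and 67.5, 58.8 and 77.6 FPKM under the Ad-PDK4 label. The groups were far apart, and the spread was wider under the Ad-PDK4 label. The means were 20.6 ± 0.214 and 68.0 ± 9.38 FPKM (n = 3), which is a log2 fold change of 1.71 (SE 0.09, 95% interval 1.49 to 1.92, limma adjusted p = 6.46e-06), the 301st largest rise. With 9131 to 15195 reads per Ad-PDK4 library, counting alone gives a coefficient of variation of 0.943%, while the 3 libraries varied by 13.8%. Under the Ad-Con label the corresponding values were 1.71% and 1.03%. An antisense gene, Gm43109, shares 0.688% of the exonic bases and had at most 4 reads.

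The level of Vcam1 was 2.57 to 2.93 times that of Icam1 in the Ad-Con libraries and 1.85 to 2.50 times in those labelled Ad-PDK4, both per length in FPKM. This ratio was lower in each Ad-PDK4 library than in any Ad-Con library. Together Icam1 and Vcam1 made up 18.7% to 19.3% of the summed FPKM of the 8 members under the Ad-Con label and 44.2% to 48.4% under the Ad-PDK4 label.

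**Figure D2:**
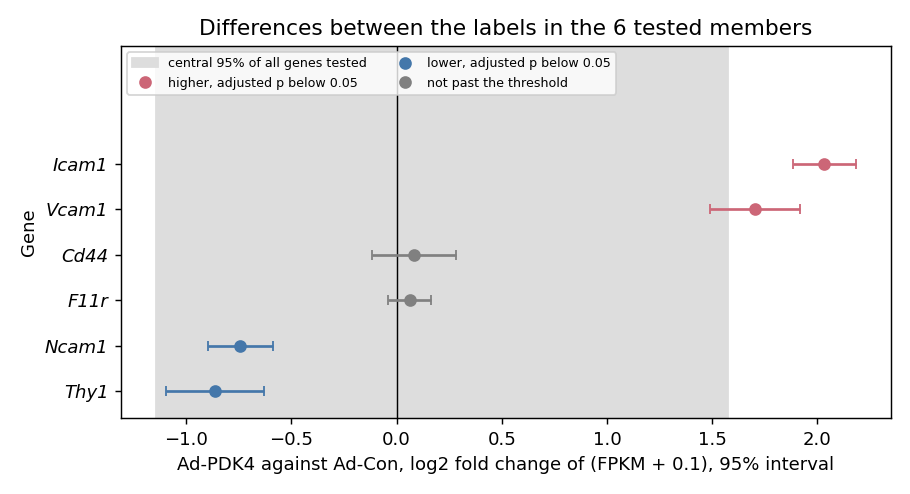
Log2 fold change of (FPKM + 0.1), Ad-PDK4 against Ad-Con, of the 6 tested members, with 95% intervals from limma. The shaded band holds the central 95% of all tested genes, from -1.14 to 1.58. Icam1 (2.03) and Vcam1 (1.71) lie beyond it, and Thy1 (-0.86) and Ncam1 (-0.74) lie below 0 within it.

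Thy1 encodes a small glycolipid-anchored protein with a single immunoglobulin-like domain, used as a surface marker of fibroblasts and T cells. It lies on chromosome 9 (chr9:44043384-44048579, plus strand). It had 18.2, 16.1 and 17.5 FPKM under the Ad-Con label and 9.21, 10.9 and 8.34 FPKM under the Ad-PDK4 label, with no overlap. The means were 17.2 ± 1.07 and 9.49 ± 1.31 FPKM (n = 3), which is a log2 fold change of -0.86 (SE 0.10, 95% interval -1.09 to -0.63, limma adjusted p = 3.59e-04). Its reads numbered 845 to 1108 against 502 to 572. The fall was short of the 2-fold limit. In the same libraries the 6 fibroblast markers examined summed to 1302 to 1416 FPKM under the Ad-Con label and 666 to 728 under the Ad-PDK4 label. Of the 5 tested among them, 3 were lower and 1 higher, against 20.8% and 21.8% of all tested genes. Most of the sum was Col1a1 (1055.5 ± 42.4 against 434.8 ± 49.5 FPKM, n = 3). Dcn rose from 90.1 ± 8.20 to 161 ± 19.0 FPKM (n = 3, limma adjusted p = 4.04e-04), and Pdgfra was not past the threshold (limma adjusted p = 0.544). The part of these mixed marker changes in the fall of Thy1 was not tested.

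Ncam1, a homophilic adhesion molecule best known from neurons, is also on chromosome 9 (chr9:49502136-49798925, minus strand, 20 exons in its longest coding transcript). It had 6.27, 6.29 and 6.25 FPKM under the Ad-Con label and 3.65, 3.64 and 3.84 FPKM under the Ad-PDK4 label. The replicates were nearly identical within each group. The means were 6.27 ± 0.0196 and 3.71 ± 0.114 FPKM (n = 3), which is a log2 fold change of -0.74 (SE 0.07, 95% interval -0.89 to -0.59, limma adjusted p = 8.65e-05). The 3 Ad-Con libraries varied by 0.313%, less than the 3.15% that counting alone gives for 957 to 1105 reads. An antisense gene, Gm11149, overlaps 4.81% of the exonic bases of Ncam1 and had 0 to 4 reads. Schwann cells also carry this molecule. Their marker Sox10 had 0 reads in every library and the 5 Schwann cell markers summed to 1.37 to 1.77 FPKM under the Ad-Con label and 0.638 to 0.763 under the Ad-PDK4 label, a fall led by S100b, whose part in the result was not tested.

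F11r encodes the junctional adhesion molecule JAM-A, a homophilic protein of cell-cell contacts, and was the most abundant member (chromosome 1, chr1:171437535-171464603, plus strand). It had 87.7, 91.2 and 86.4 FPKM under the Ad-Con label and 91.4, 91.6 and 93.9 FPKM under the Ad-PDK4 label. The Ad-PDK4 libraries were all higher, by little. The log2 fold change of 0.06 was not past the threshold (95% interval -0.04 to 0.17, limma adjusted p = 0.297, n = 3 per group).

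Cd44 (chromosome 2, chr2:102811141-102901665, minus strand) had 8.28, 7.17 and 7.72 FPKM under the Ad-Con label and 7.95, 7.61 and 9.04 FPKM under the Ad-PDK4 label. The groups overlapped. The means were 7.72 ± 0.556 and 8.20 ± 0.746 FPKM (n = 3), with a log2 fold change of 0.08 (95% interval -0.12 to 0.28, limma adjusted p = 0.470). The annotation holds 9 transcripts of Cd44, 8 of them coding. The values are sums over the gene, so the standard and variant isoforms of CD44 were not separated.

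Alcam, the ligand of the lymphocyte receptor CD6 (chromosome 16, chr16:52248996-52454074, minus strand), and Mcam, a molecule of endothelial and mural cells (chromosome 9, chr9:44134469-44142727, plus strand), had mean levels of 0.436 and 0.233 FPKM over all libraries, under the minimum of 0.5. Alcam had 0.600, 0.568 and 0.473 FPKM against 0.332, 0.249 and 0.394, on 87, 71 and 61 against 43, 31 and 62 reads. Its Ad-PDK4 libraries were all lower per length and depth, and the exact two-sided permutation test gave p = 0.1, the smallest that 3 against 3 libraries allow. In the fit without a filter its log2 fold change was -0.62 (95% interval -1.17 to -0.06, limma adjusted p = 0.121). Mcam had 11, 11 and 15 against 18, 13 and 21 reads, or 0.161, 0.187 and 0.247 against 0.295, 0.222 and 0.284 FPKM. The 6 pericyte markers, of a cell type that carries MCAM, summed to 53.7 to 60.2 FPKM under the Ad-Con label and 69.5 to 77.1 under the Ad-PDK4 label. The higher sum was that of Pdgfrb, at 45.4 ± 3.41 against 64.6 ± 2.56 FPKM (n = 3), whereas Cspg4 went from 0.614 to 0.157 and Rgs5 from 0.663 to 0.204 FPKM (limma adjusted p = 0.00785 and 0.00965 without a filter), and Notch3 from 9.35 to 7.52 (limma adjusted p = 0.130). The groups of Mcam overlapped (exact two-sided permutation p = 0.2, log2 fold change without a filter 0.30, limma adjusted p = 0.495). Neither gene was past the threshold in the fit without a filter.

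The order of the members by FPKM, which is per length, differed between the labels. Under Ad-Con it ran F11r, Vcam1, Thy1, Cd44, Icam1, Ncam1, Alcam and Mcam, and only Cd44 and Icam1 overlapped as neighbours, at 7.72 and 7.54 FPKM. Under Ad-PDK4 it ran F11r, Vcam1, Icam1, Thy1, Cd44, Ncam1, Alcam and Mcam. There Thy1 and Cd44 overlapped, at 9.49 and 8.20 FPKM, as did Alcam and Mcam, at 0.325 and 0.267. F11r stood 4.28 times above Vcam1 under Ad-Con and 1.36 times above it under Ad-PDK4.

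Icam1, Thy1, Mcam and Ncam1 all lie on chromosome 9, but only some are close to each other or to relatives. Icam4 and Icam5, genes of the same family, follow Icam1 within a stretch of 23.1 kb. Icam4 had 0 reads in every library and Icam5 27 to 43, whose log2 fold change was -0.08 (95% interval -0.71 to 0.54, limma adjusted p = 0.829). Thy1 and Mcam are 85.9 kb apart. Among the longest coding transcripts of the members, 17.8% of the 75-base words of Icam1 were shared with another gene, which was Gm47079 alone. The share was 2.65% for Ncam1 and 0.205% for F11r, and 0 for the other 5 members.

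The tested genes with the most similar pattern over the 6 libraries were found for the members past the 2-fold limit, by the root mean square distance between log2 values centred on each gene's mean. For Icam1 these were Svep1, a large adhesion protein of the extracellular matrix, at a distance of 0.035, and Bcl3, a nuclear member of the IkB family, at 0.046. Bcl3 had 4.01, 4.30 and 3.65 against 15.3, 17.7 and 16.3 FPKM. For Vcam1 they were Naip2, an inflammasome sensor, at 0.058, and Mitd1, a protein of cell abscission, at 0.061. Naip2 belongs to a family of close copies, so its level of 0.617 ± 0.0336 against 2.26 ± 0.421 FPKM (n = 3) is uncertain. With 2 groups, this distance mainly finds genes with nearly the same fold change. By size of rise, Svep1 ranked 226th and Bcl3 230th beside Icam1 (227th), and Naip2 303rd and Mitd1 324th beside Vcam1 (301st). Shared regulation was not tested.

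Partners of these molecules were examined as a list of 19 receptors and ligands, of which 10 were tested. Of these, 1 was higher and 4 lower (Itgb2, Itgav, Itgb3 and Selp), against 21.8% and 20.8% of all tested genes. The median log2 fold change was -0.13 against -0.003 for all tested genes. The ICAM1 receptors pair an alpha subunit with Itgb2. Itgal had at most 2 reads and Itgam 0 in any library, where a count of 0 allows up to 3 reads, for counting error only. Itgb2 had 7.18, 7.18 and 7.14 FPKM against 5.13, 6.05 and 5.86, lower by a log2 value of -0.33 (limma adjusted p = 0.00967). For the VCAM1 receptor, Itga4 had 16 to 24 reads against 5 to 10 (log2 fold change without a filter -0.47, limma adjusted p = 0.244). Itgb1, the shared beta1 subunit, had 231 ± 7.54 against 217 ± 12.0 FPKM (n = 3, log2 fold change -0.09, limma adjusted p = 0.228). Cd6, the receptor of ALCAM, had 0 reads. THY1 binds integrins of the alphaV group: Itgav changed by -0.37 on the log2 scale (limma adjusted p = 0.00270) and Itgb3 by -0.98 (limma adjusted p = 6.81e-04), both lower. Lgals9, galectin-9, a ligand of CD44, rose from 55.2 ± 1.21 to 134 ± 1.88 FPKM (n = 3, log2 fold change 1.28, limma adjusted p = 5.15e-07).

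**Figure D3:**
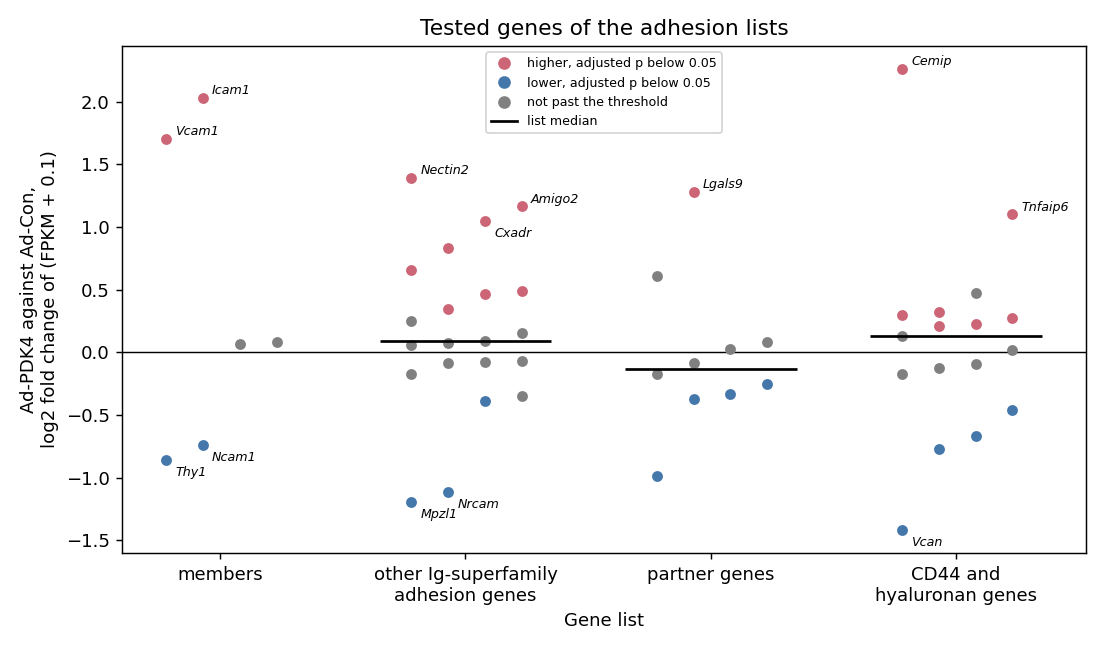
Log2 fold changes (Ad-PDK4 against Ad-Con) of the tested genes in 4 lists, coloured by whether an adjusted p below 0.05 was reached, with medians of the 3 wider lists as black lines. Every list holds genes on both sides of 0, and the named genes include Nectin2 (1.40), Mpzl1 (-1.20), Lgals9 (1.28) and Cemip (2.26).

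Among 47 other immunoglobulin superfamily adhesion genes, 21 were tested, 8 higher and 3 lower, of them 3 and 2 past the 2-fold limit. Over all tested genes, 21.8% were higher and 20.8% lower, with 3.95% and 2.68% past the 2-fold limit. The median log2 fold change was 0.09 in the list and -0.003 over all tested genes. Past the 2-fold limit, Nectin2, a nectin of cell-cell junctions, rose from 10.9 ± 0.432 to 29.0 ± 2.53 FPKM (n = 3, log2 fold change 1.40, limma adjusted p = 5.25e-06). The other rises past it were Amigo2 (1.16), a homophilic membrane protein, and Cxadr (1.05), the receptor of coxsackievirus and of common adenoviral vectors, which went from 4.14, 4.51 and 4.48 to 8.53, 8.52 and 10.5 FPKM. The falls past it were Mpzl1 (-1.20), a relative of the myelin protein zero, and Nrcam (-1.12), a neuronal-type adhesion molecule. With a pseudocount of 1 in place of 0.1, Amigo2 (0.97), Cxadr (0.92) and Nrcam (-0.52) were past the threshold but not the 2-fold limit, and without Ad-PDK4 replicate 3 Cxadr stood at 0.95. JAM-B and JAM-C, relatives of F11r, had log2 fold changes of -0.39 (Jam2, limma adjusted p = 0.00144, lower) and 0.25 (Jam3, limma adjusted p = 0.113, but 0.0294 with the replicate block and 0.0230 without Ad-PDK4 replicate 2).

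The list around CD44 and hyaluronan held 24 genes, of which 17 were tested, 7 higher and 4 lower. Over all tested genes, 21.8% were higher and 20.8% lower. The median log2 fold change was 0.13 in the list and -0.003 over all tested genes. Under quantile normalization the list had 5 higher and 6 lower. All tested genes went the same way, from 2928 higher and 2798 lower to 2531 and 3132. The balance thus depends on the scaling, in the list as in all tested genes. Cemip, a hyaluronan-degrading protein, rose from 4.25 ± 0.443 to 20.7 ± 1.17 FPKM (n = 3, log2 fold change 2.26, limma adjusted p = 8.72e-07). Tnfaip6, a hyaluronan-binding protein of inflammation, rose by a log2 fold change of 1.10 on 12 to 24 against 35 to 60 reads (limma adjusted p = 0.0110; 0.57 with a pseudocount of 1 and 0.86 without Ad-Con replicate 3), and Vcan, a hyaluronan-binding proteoglycan, fell by 1.42. The hyaluronan synthases were under the filter. Has2 had 2, 5 and 5 against 25, 20 and 25 reads and Has1 9, 20 and 17 against 41, 39 and 51, with no overlap, and Has3 had 31, 20 and 14 against 21, 30 and 27. In the fit without a filter Has1 (1.11, limma adjusted p = 0.0358) and Has2 (1.36, limma adjusted p = 0.0169) were past the threshold. The ERM proteins that link CD44 to actin differed little: Rdx rose by 0.21 (limma adjusted p = 0.0139), and Ezr (-0.09) and Msn (0.02) were not past the threshold.

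The 4 members past the threshold kept their direction and call in every alternative that tested them. Icam1 ran from 1.91 to 2.09, Vcam1 was never below 1.61, Ncam1 ran from -0.78 to -0.63 and Thy1 from -0.97 to -0.77. Without Ad-PDK4 replicate 3, the library with the most Vcam1, the log2 fold change of Vcam1 was 1.61.

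**Figure D4:**
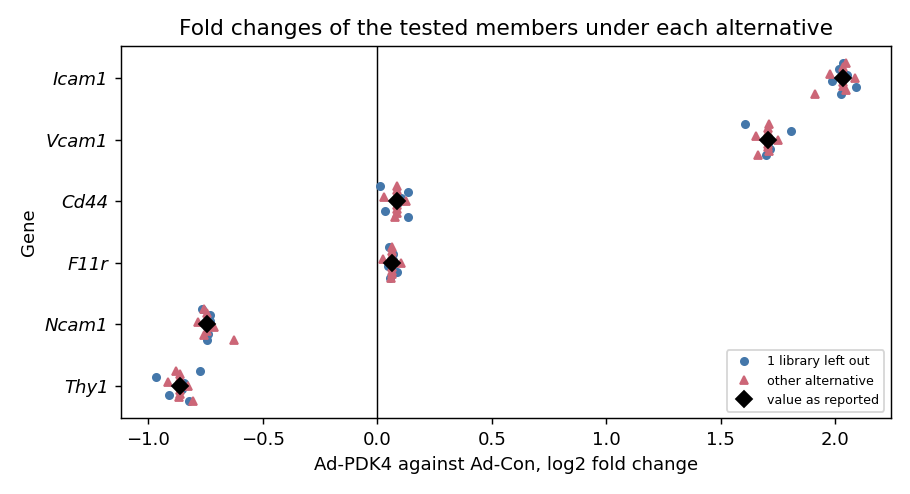
Log2 fold change of each tested member (Ad-PDK4 against Ad-Con) as reported (black) and under each alternative, with fits that leave out 1 library in blue and the others in red. The points of Icam1, Vcam1, Ncam1 and Thy1 stay on 1 side of 0, and those of Cd44 (0.01 to 0.14) and F11r (0.03 to 0.10) stay close to it.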

How the data were processed

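Gene expression was measured by paired-end RNA-seq in 6 libraries. The deposited unit was FPKM, calculated by the authors for each gene in each library, with no replicates pooled. The submitters' processing notes list CASAVA 1.8, fastp, HISAT2 2.0.5, featureCounts 1.5.0-p3, DESeq2 1.20.0 and the build GRCm39, but the coordinates of 98.3% of 54409 matched identifiers, all 8 members included, were those of GENCODE M21 on GRCm38, so positions are given on GRCm38. The labels name a SMARTER kit for the libraries and the study's methods a NEBNext kit. FPKM times the deposited gene length (in bases, another deposited column) gave whole multiples of 1 step for 100% of non-zero values in every library, within 0.01, and these are called reads.

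Since FPKM is not a count, log2(FPKM + 0.1) was compared between groups with limma 3.58.1 in R 4.3.3 (empirical Bayes with trend and robust, no covariates) for genes with a mean of at least 0.5 FPKM over all libraries. P-values were adjusted by the Benjamini-Hochberg method over all 13423 of them, with a threshold of 0.05. The pseudocount understates the change of low genes. Single values under the filter were compared by exact permutation. The script was tested on simulated data. Members and lists were chosen with earlier results of these data known. Members were all named. From the wider lists, the text names genes past the threshold and the 2-fold limit (at most 5 per list) and a fixed set of receptors, synthases and ERM genes, with the 2 tested genes most alike to each member past both limits. Icam4, Icam5, Itgax, Jam2, Jam3, Selp, Ncam2, Madcam1 and single genes of the marker lists were added after their values were seen. Alternatives were pseudocounts of 1 and 0.01, no filter or a minimum of 5 FPKM, TPM scaling, quantile normalization, plain moderation, a replicate block, limma-voom on the recovered reads, and leaving out each library. A marker gene is not reported here.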

Additional observations from a re-analysis of the deposited data

How the results depend on the processing

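The calls and directions of Icam1, Vcam1, Cd44, F11r and Thy1 did not change in any of the 15 alternatives, nor did those of Ncam1 in the 14 that tested it. With a minimum of 5 FPKM, Ncam1 was not tested, so 1 member was lower in place of 2, and 258 genes were higher and 114 lower past the 2-fold limit, with 5 higher in the other immunoglobulin superfamily genes and 1 lower in the CD44 and hyaluronan list, because fewer genes were tested. With a pseudocount of 1, 153 genes were lower past the 2-fold limit. Leaving out 1 library gave 2 to 4 lower genes in the CD44 and hyaluronan list, with 2 without Ad-Con replicate 1 or without Ad-PDK4 replicate 2. Itgb1 changed sign under quantile normalization (0.00170) and Msn without Ad-Con replicate 2 (-0.00515, with a range of -0.00515 to 0.0504 over the libraries left out), and Icam5 without Ad-Con replicate 2 (0.0717) or without Ad-PDK4 replicate 3 (0.0461, with a range of -0.239 to 0.0717), all far from the threshold. Rdx was no longer past it under quantile normalization (0.15) or without Ad-Con replicate 3 (0.19). Selp, the gene behind the fourth lower call among the partner genes, lost its call in 8 alternatives. The cause was not tested. Replicate numbers are shared between the groups, but same-numbered libraries did not deviate together (correlations of -0.05, -0.03 and -0.001). With the replicate block, 2759 genes were higher and 2626 lower, Icam1 stood at 2.03 and Vcam1 at 1.71, no member changed its call, Jam3 passed the threshold, and the counts lower among the partner genes and higher in the CD44 and hyaluronan list were 3 and 6. Alcam and Mcam rested on few reads, at most 87 and 21 per library.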

Other observations

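Some genes usually named for blood or endothelial cells were counted in these libraries. Itgb2, the beta subunit of the leukocyte integrins, had 285 to 446 reads in every library, while its alpha partners Itgal, Itgam and Itgax had at most 2 reads and the leukocyte marker Ptprc had 0. Selp, the P-selectin of platelets and endothelium, had 462 to 685 reads, at 7.24 ± 0.597 FPKM under the Ad-Con label and 6.05 ± 0.446 under the Ad-PDK4 label (n = 3, log2 fold change -0.25, limma adjusted p = 0.0457). That call was lost in 8 of 15 alternatives, among them no filter, TPM scaling, the replicate block and the omission of Ad-Con replicates 1 or 3 or Ad-PDK4 replicates 1 or 3, with adjusted p from 0.0219 to 0.139 over all 15. Of the endothelial markers, Tie1, Emcn and Cldn5 had 0 reads, while Kdr had 71 to 174 and Vwf 7 to 23.

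Among the family members under the filter, 2 stood at or under 3 reads in every Ad-Con library and above that in every Ad-PDK4 library. Ncam2, the closest relative of Ncam1, had 0, 0 and 3 against 26, 20 and 28 reads, whereas Ncam1 fell. With 3 reads taken for each Ad-Con library, Ncam2 was 7.94-fold higher, which is no strict lower limit. Madcam1, another integrin ligand, had 1, 0 and 0 against 7, 10 and 16 reads, 3.47-fold higher on the same basis. In the fit without a filter their limma adjusted p-values were 0.0201 and 0.00442. Both were chosen after their values were seen.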
